A study of Homo sapiens with 26 samples.

Results

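The marks on 10 genes of the Wnt pathway and of intestinal stem cells were followed through the peak lists of 16 ChIP-seq libraries from HCT116 cells. The 10 genes were AXIN2, NKD1, RNF43 and ZNRF3, which damp Wnt signalling, LGR5 and ASCL2, which mark crypt stem cells, the ephrin receptors EPHB2 and EPHB3, and the transcription factors LEF1 and TCF7. They were taken by name, out of 20163 protein-coding genes, as known targets and effectors of Wnt signalling. Every called peak that overlapped a gene body or the 100 kb on either side (GRCh37) was counted to that gene. With overlapping peaks merged into regions across lists, separately for each mark, the 10 windows held 157 of 87603 H3K27ac regions and 239 of 110276 H3K4me1 regions.

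HCT116 is a colorectal cancer line with wild-type p53 and an activating mutation in CTNNB1, the gene of β-catenin, so that all samples carry an active Wnt pathway. HCT116 cells, called WT here, had received the vehicle DMSO (0 h) or the HDM2 inhibitor Nutlin-3a, which releases p53, for 1 h or 10 h. The line labelled HCT116_RAD21 derives from the same cells and carries a degron on the cohesin subunit RAD21. It had received DMSO or Nutlin-3a for 1 h, in both groups in addition to an auxin analogue that triggers RAD21 degradation. The labels do not name the analogue, but the peak names of its 4 lists carry rad21KD. According to the study, RAD21 was degraded with the analogue before p53 was activated, and cells treated in this way gave the H3K27ac data. The study describes these data, with and without Nutlin-3a, as a RAD21 knockdown. No list of the tagged line without the analogue was available. In comparisons of this line with WT, loss of RAD21, the analogue and the tagged line itself therefore cannot be told apart. H3K27ac, which is found at promoters and enhancers in use, was profiled in all 5 groups, and H3K4me1, which is found at enhancers whether or not they are in use, in the 3 WT groups, with 2 replicates in each of the 8 groups. The replicates are numbered BR in the labels, and p-values measure the spread between these libraries of 1 parental line and 1 line derived from it.

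In the absence of Wnt ligand, a destruction complex built on axin marks β-catenin for degradation. When the ligand binds Frizzled and LRP receptors the complex is inhibited, and β-catenin enters the nucleus and activates genes through TCF/LEF factors bound to short sites that read CTTTGAT or CTTTGAA. In the crypts of the intestine this program keeps stem cells dividing, and many of its targets are brakes on the pathway itself. In colorectal cancer cells, mutations in APC or CTNNB1 keep the program on without ligand.

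The H3K27ac lists held 31637 to 49127 peaks and the H3K4me1 lists 84492 to 92943, which is the only measure of depth that the lists give. The 3 H3K27ac lists of WT 0 h and of WT 1 h replicate 1 carry peak names without the word input and covered 0.993% to 1.03% of the genome, whereas the other 7 are named with it and covered 1.59% to 2.15%. The form of the name therefore splits the WT 1 h pair, and it cannot be told apart from treatment between WT 10 h and 0 h. Since the height of a peak depends on its library, peaks were compared by rank. The list percentile is the rank of a peak by −log10 p among all peaks of its own list, with 100 for the strongest, and the shared percentile is the rank among the 18757 H3K27ac or 60476 H3K4me1 regions called in every list of that mark. As a check of the label, promoters of 6 of 6 epithelial marker genes carried H3K27ac in every list, none of 6 fibroblast, 6 blood and 4 endothelial genes did in any list, and of 6 intestinal genes CDX2 alone was marked (in all 10 lists), while CDX1, VIL1, GPA33, CDH17 and LGALS4 were marked in none.

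The following 5 stretches were picked to show TCF/LEF motifs at places named below, so each holds a motif by choice. Each has 300 bases from GRCh37, read 5′ to 3′ on the strand of its gene. CTTTGAT and CTTTGAA, or their reverse complements ATCAAAG and TTCAAAG, are in capitals. Other regions with called changes held neither motif in the 300 bases around their summits. Among them are the EPHB2 promoter and the regions at RNF43 53 kb, ZNRF3 148 kb and ASCL2 90 kb. The AXIN2 stretch (chr17:63556858-63557157, minus strand) lies in the first intron inside the promoter region, the LGR5 stretch (chr12:71832878-71833177, plus strand) lies in a promoter without H3K27ac, the ZNRF3 stretches (chr22:29319861-29320160 and chr22:29400757-29401056, plus strand) surround the summits of intronic H3K27ac regions whose ranks changed, and the RNF43 stretch (chr17:56461573-56461872, minus strand) surrounds the summit of an intronic region that is missing from both WT 0 h lists.
AXIN2 first intron: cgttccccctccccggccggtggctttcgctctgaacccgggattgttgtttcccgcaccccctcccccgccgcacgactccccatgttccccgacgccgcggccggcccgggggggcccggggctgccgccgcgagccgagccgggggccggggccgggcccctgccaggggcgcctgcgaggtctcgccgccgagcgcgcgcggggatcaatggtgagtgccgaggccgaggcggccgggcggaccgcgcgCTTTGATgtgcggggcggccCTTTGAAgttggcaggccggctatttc
LGR5 promoter: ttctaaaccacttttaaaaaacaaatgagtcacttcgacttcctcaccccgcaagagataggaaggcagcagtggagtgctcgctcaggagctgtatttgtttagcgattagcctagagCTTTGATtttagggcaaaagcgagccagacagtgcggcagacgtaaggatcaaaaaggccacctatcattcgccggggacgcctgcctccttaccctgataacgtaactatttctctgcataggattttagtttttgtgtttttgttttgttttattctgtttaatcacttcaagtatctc
ZNRF3 intron, summit at 40 kb: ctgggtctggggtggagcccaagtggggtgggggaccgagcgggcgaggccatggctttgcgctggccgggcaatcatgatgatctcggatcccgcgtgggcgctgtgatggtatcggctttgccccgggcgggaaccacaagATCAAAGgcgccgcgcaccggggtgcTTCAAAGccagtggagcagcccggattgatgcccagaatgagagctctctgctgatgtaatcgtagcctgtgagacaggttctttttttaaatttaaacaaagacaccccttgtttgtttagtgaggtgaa
ZNRF3 intron, summit at 121 kb: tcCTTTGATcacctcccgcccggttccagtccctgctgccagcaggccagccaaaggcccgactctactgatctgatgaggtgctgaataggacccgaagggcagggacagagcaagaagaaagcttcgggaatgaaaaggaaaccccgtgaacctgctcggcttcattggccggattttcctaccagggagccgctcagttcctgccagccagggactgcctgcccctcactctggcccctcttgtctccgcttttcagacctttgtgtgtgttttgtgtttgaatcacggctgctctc
RNF43 intron, summit at 33 kb: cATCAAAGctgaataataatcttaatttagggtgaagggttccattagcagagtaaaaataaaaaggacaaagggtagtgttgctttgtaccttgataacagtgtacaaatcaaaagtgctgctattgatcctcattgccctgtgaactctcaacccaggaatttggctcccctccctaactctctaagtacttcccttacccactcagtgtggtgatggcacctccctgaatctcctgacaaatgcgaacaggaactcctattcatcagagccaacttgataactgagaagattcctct

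The promoters (1000 bp before to 200 bp after the start site) fell into 2 kinds. H3K27ac was called in every list at the promoters of AXIN2, NKD1, RNF43, ZNRF3, EPHB2, EPHB3 and TCF7, and in no list at those of LGR5, ASCL2 and LEF1. Across 20136 coding genes, 58.0% had a promoter peak in every H3K27ac list and 34.5% in none. H3K4me1 was called in all 6 lists at 8 of the 10 promoters, LGR5 among them, and in none at ASCL2 and LEF1, against 63.7% and 28.6% of coding genes.

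AXIN2, a scaffold of the destruction complex that is induced by the pathway it restrains, had the strongest promoter of the 10. Its H3K27ac peak lay at list percentiles 97.7 and 96.3 in WT at 0 h, 96.5 and 95.9 at 1 h and 93.9 and 94.8 at 10 h, and at 96.8, 97.5, 91.1 and 92.7 in the HCT116_RAD21 line (0 h, then 1 h). By the mean over the 10 lists it ranked above 86.8% of the 11673 coding promoters marked in every list. RNF43, a transmembrane E3 ligase that removes Frizzled receptors from the surface, followed at 59.5%. By mean width over the 10 lists its peak was the broadest of the 10 genes, wider than 97.9% of those promoters. This did not hold in every list. At WT 0 h it was 1117 and 1128 bp wide, against 1408 and 1433 bp for TCF7. In WT 1 h replicate 1 it was 1185 bp wide, against 1835 bp for AXIN2.

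The other marked promoters ranked lower. EPHB2, a receptor that positions cells along the crypt axis, stood at 36.5% and ZNRF3, the paralogue of RNF43, at 34.6%. The promoters of TCF7, which encodes the TCF1 factor, of NKD1, an inhibitor that binds Dishevelled, and of EPHB3, a receptor related to EPHB2, stood at 4.79%, 1.85% and 0.231%. The order below AXIN2 is only partly resolved, since list percentiles overlap. RNF43 (83.4 to 93.4), EPHB2 (70.55 to 87) and ZNRF3 (76.3 to 87) overlap, and so do TCF7 (46.3 to 66.7), NKD1 (41.5 to 59.2) and EPHB3 (18.9 to 63.2). The ranges of RNF43 and AXIN2 (91.1 to 97.7) overlap as well, but AXIN2 ranked above RNF43 in each list.

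**Figure D1:**
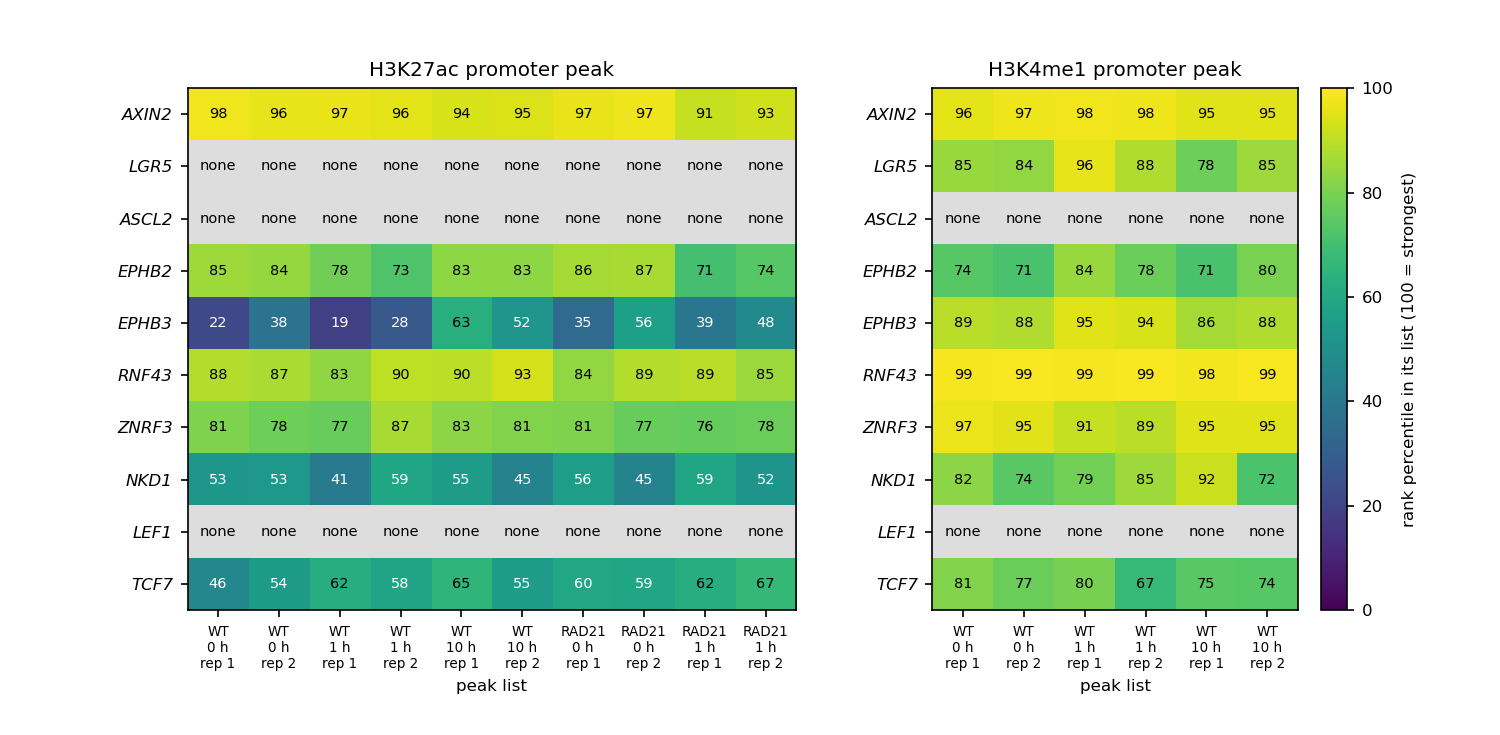
List percentile (colour and printed number, 100 strongest) of the promoter peak of each gene (rows) in each list (columns), with H3K27ac on the left and H3K4me1 on the right and none where a list holds no promoter peak. AXIN2 lies above 90 in all 16 lists, and LGR5 has H3K4me1 in all 6 lists and H3K27ac in none.

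H3K4me1 ordered the promoters differently. The RNF43 promoter lay in a single broad domain of 48440 to 61060 bp at list percentiles above 98 in all 6 lists, wider than 99.8% of the 12822 coding promoters marked in every H3K4me1 list. AXIN2 ranked above 94.3% of these promoters, ZNRF3 above 90.5%, EPHB3 above 84.4% and LGR5 above 76.5%. The order takes the strongest promoter peak of each list, and at ZNRF3 this peak ran from 1335 to 29220 bp in width. The LGR5 promoter, whose gene encodes the R-spondin receptor of crypt stem cells, thus carried H3K4me1 (chr12:71832655-71835460, list percentiles 84.7 and 83.7 at 0 h, 96.3 and 88.3 at 1 h, 77.9 and 85.2 at 10 h) and no called H3K27ac.

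Beyond its promoter, LGR5 had little H3K27ac. A region in an intron, 29.7 kb from the start site, was called in 3 of 10 lists, at list percentiles 35.6 in WT 0 h replicate 1, 26.9 in WT 1 h replicate 1 and 2.51 in HCT116_RAD21 1 h replicate 1. No group had it in both replicates. H3K4me1 was present there in all 6 lists at 80.9 to 94.8. ASCL2, a transcription factor of the same stem cells, had a weak H3K27ac region over its own exon, which was called in 9 of 10 lists (16.5 to 52.7) and was missing from WT 10 h replicate 2.

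Further features lay away from the gene. An intergenic H3K27ac region 90.3 kb past the start site (chr11:2199715-2203340), on the side of TH, was called in every list, within an H3K4me1 region above list percentile 99 in all 6 lists. LEF1, the TCF/LEF family member that is often switched on in colorectal tumours, had no H3K27ac region inside the gene that was called in every list. Its intronic region 110 kb from the start site was called in both WT 10 h lists, at 7.79 and 26.2, and in no other list.

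Outside promoters of coding genes, the strongest H3K27ac region of each gene by mean list percentile set the genes apart. At EPHB2 it was an intronic region 122 kb from the start (chr1:23157607-23160286), at 81.2 to 94.4 over the 10 lists. At ZNRF3 it was the region at 148 kb, which lies at a non-coding promoter (chr22:29425069-29429756, 71.9 to 93.0). At RNF43 it was the region 11 kb before the start (chr17:56505342-56506379, 63.3 to 78.1), at ASCL2 the distal region described above (47.5 to 76.0) and at TCF7 an intronic region 10.7 kb from the start (41.3 to 68.4). At AXIN2, NKD1, EPHB3, LGR5 and LEF1 the region with the highest mean was called in 5, 7, 1, 1 and 2 lists, so that its mean rests on those lists.

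By H3K4me1, all 10 genes had a strong region outside promoters of coding genes in every list. The highest were those of ASCL2 (mean list percentile 99.5), TCF7 at 10.9 kb (99), EPHB2 at 119 kb (98.8) and ZNRF3 at 151 kb (96.0), followed by NKD1 (94.7), AXIN2 at 25.1 kb before the start (94.1), LGR5 at 29.6 kb (89.6), RNF43 (89.5), EPHB3 (78.9) and LEF1 (78.2). Neighbours in this order overlap in range, except RNF43 (86 to 92 over the 6 lists) and EPHB3 (71.2 to 83.9).

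RNF43 and ZNRF3, the ligases that clear Frizzled, and TCF7 had the most covered windows. H3K27ac covered 8.79 and 8.70 kb of the RNF43 window in WT at 0 h, 9.45 and 37.9 kb at 1 h, 33.0 and 36.4 kb at 10 h, and 25.8, 33.6, 42.5 and 46.3 kb in the HCT116_RAD21 line (0 h, then 1 h). The 3 lists named without input hold 8.70 to 9.45 kb and the 7 named with it 25.8 to 46.3 kb, so that the WT 1 h replicates lie on opposite sides and the form of the name moves with the difference. TCF7 followed the same split, with 8.88 to 9.12 kb against 13.7 to 22.5 kb, and so did ZNRF3, with 9.47 to 10.9 kb against 17.2 to 18.7 kb. With 2 lists a group, the smallest two-sided p of an exact permutation test is 0.333, and no test of covered length was made.

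**Figure D2:**
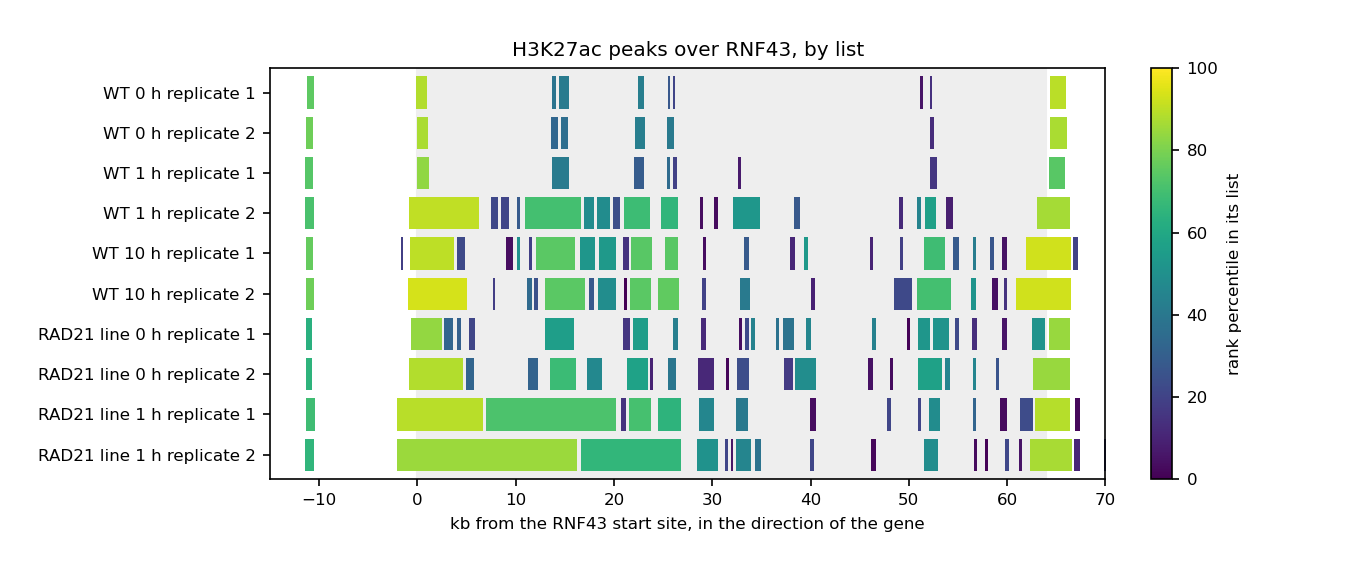
Called H3K27ac peaks along the RNF43 window in each of the 10 lists, against distance from the RNF43 start site (kb), coloured by list percentile, with the gene in grey. Peaks inside the gene, 0 to 60 kb from the start, fill more of the row in the 7 lists named with input than in the 3 named without it, with 1 WT 1 h replicate of each kind.

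The peaks at RNF43 also differed in width. Its promoter peak was 1117 and 1128 bp wide in WT at 0 h, 1185 and 7178 bp at 1 h, 4530 and 5985 bp at 10 h, and 3134, 5490, 8797 and 18350 bp in the HCT116_RAD21 line (0 h, then 1 h). The AXIN2 promoter peak differed less, from 922 and 688 bp at WT 0 h to 1450 and 1962 bp at 10 h, with 1835 and 2281 bp at 1 h and 2396, 2371, 2368 and 2484 bp in the HCT116_RAD21 line. At both genes the WT 0 h lists hold the narrowest peaks. Because WT 0 h and the name form cannot be separated for the 10 h comparison, the part of treatment in these widths was not tested.

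**Figure D3:**
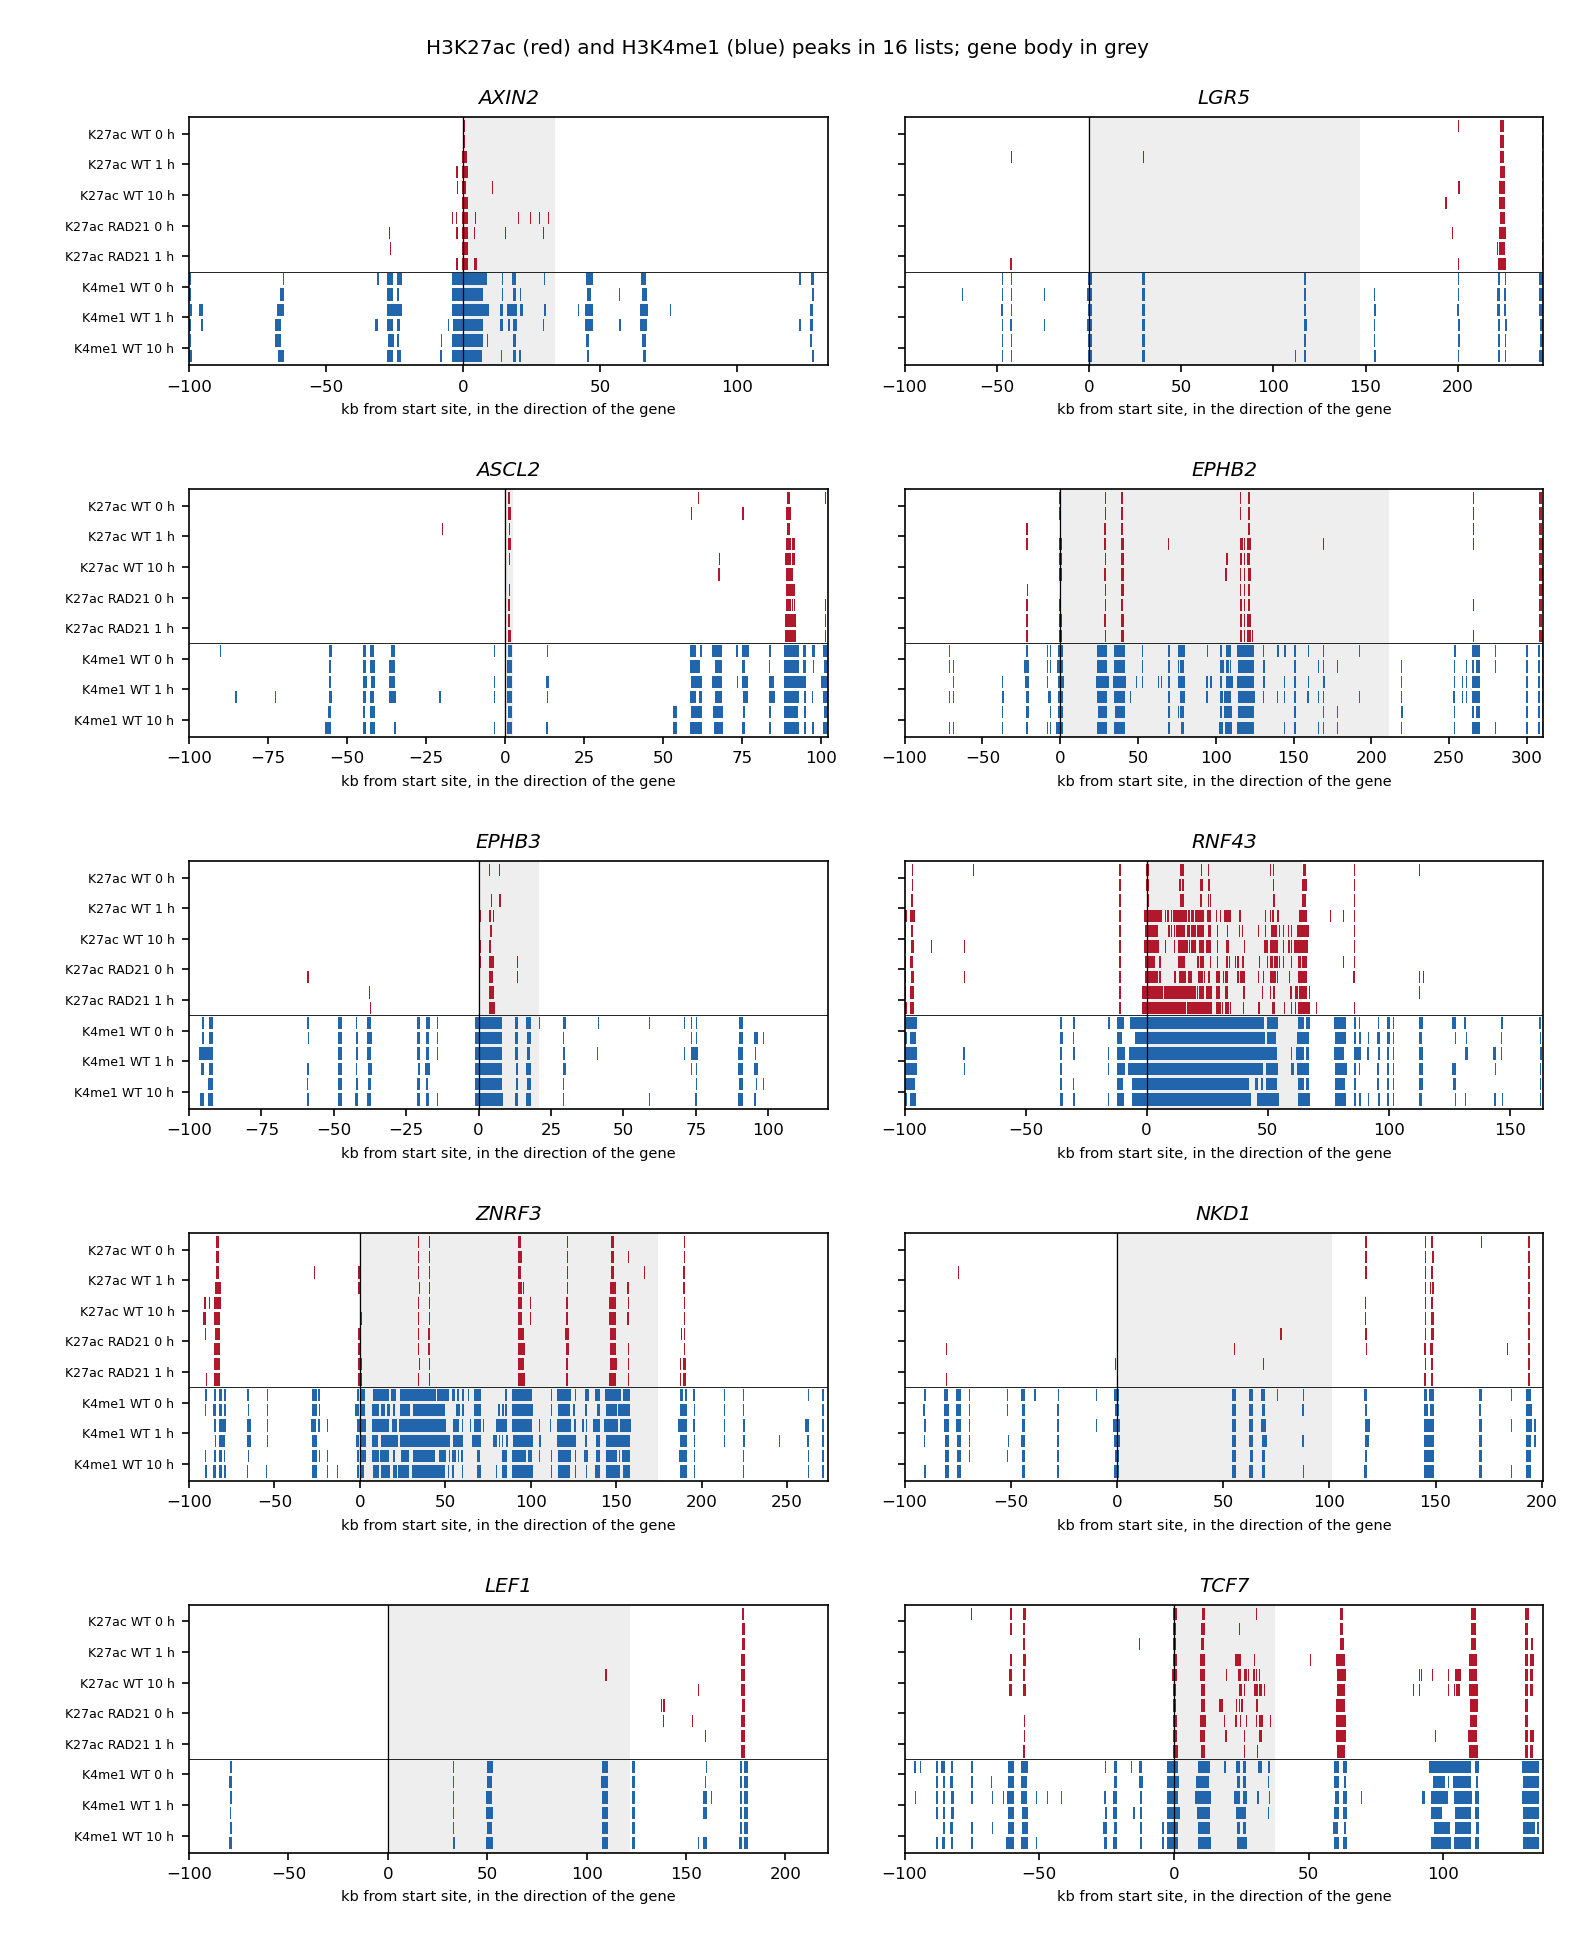
Called H3K27ac and H3K4me1 peaks of every list around the 10 genes, against distance from each start site (kb), 1 line per list and 2 lines per group, with the gene body in grey. H3K4me1 fills much of the RNF43 and ZNRF3 gene bodies, and LGR5 shows H3K4me1 but no H3K27ac at its start.

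Summed over the 10 windows, H3K27ac covered 1.62% ± 0.0488 of the sequence in WT at 0 h, 2.66% ± 1.26 at 1 h and 3.54% ± 0.00224 at 10 h, and 3.19% ± 0.269 and 3.94% ± 0.0910 in the HCT116_RAD21 line at 0 and 1 h (SD, n = 2). Over the whole genome the corresponding means were 0.996%, 1.48%, 2.11%, 1.65% and 2.05%, so WT 0 h was lowest in both. H3K4me1 covered 14.6%, 16.6% and 13.8% of the windows at 0, 1 and 10 h, and 6.03%, 6.62% and 5.74% of the genome. Windows around genes hold more peaks than the genome at large. Among all coding windows the RNF43 window stood at percentiles 69.8 to 90.3 for H3K27ac and 90.5 to 90.7 for H3K4me1 across groups. The LGR5 window stood at 25.9 to 30.4 and the LEF1 window at 14.8 to 21.7 for H3K27ac. These shares include peaks of neighbouring genes. In the LEF1 window the only H3K27ac peak of each WT 0 h list lay at the HADH promoter. In the LGR5 window the H3K27ac regions called in every list lay at promoters of THAP2, ZFC3H1 and TMEM19.

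**Figure D4:**
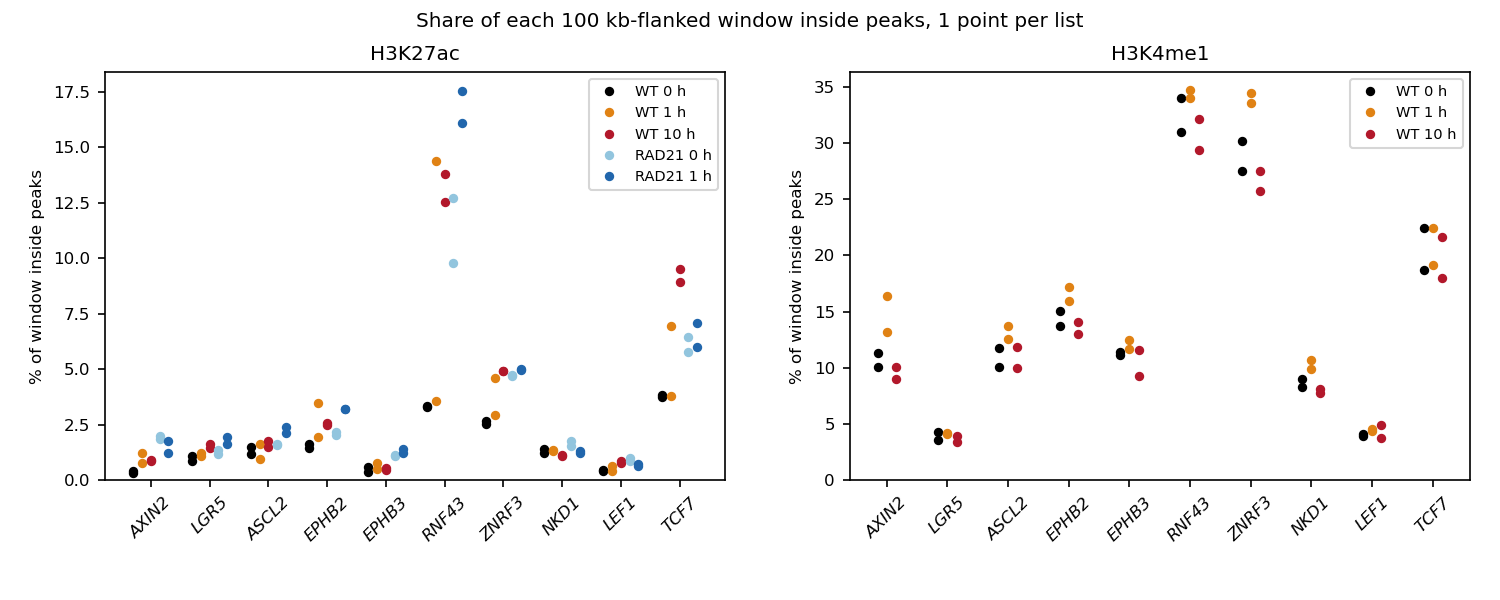
Share of each gene's window inside H3K27ac (left) and H3K4me1 (right) peaks in percent, 1 point per list, coloured by group. RNF43 reaches the highest share for both marks, and its 2 WT 1 h points lie far apart for H3K27ac.

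The TCF/LEF motifs were counted in promoters and at summits. CTTTGAT or CTTTGAA, searched on both strands, occurred in 24.9% of 19845 coding promoters, and in 4 of the 10 promoters, among them those of AXIN2 and TCF7 (both motifs) and of LGR5 (CTTTGAT). In the 300 bp around H3K27ac summits the motifs occurred in 18 of the 157 regions (11.5%) against 6.81% of all regions, and in 5 of the 35 regions called in every list (14.3%) against 4.93%. The 5 are the AXIN2 promoter and the ZNRF3 intronic regions at 34.7, 40.6, 94.4 and 121 kb. The AXIN2 pair printed above lies 862 and 882 bp past the start site, outside both the promoter and the summit window counted here. NKD1 had the motif in 5 of 14 regions, AXIN2 in 4 of 12, ZNRF3 in 4 of 19, RNF43 in 3 of 33, LEF1 in 1 of 7 and TCF7 in 1 of 30, while 0 of 18 EPHB2, 0 of 9 ASCL2, 0 of 9 LGR5 and 0 of 6 EPHB3 regions held it. The differences between genes were not tested. These are matches of letters and say nothing of binding.

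The change of rank with Nutlin-3a was tested in the regions called in every list, which are 35 of the 157 H3K27ac and 125 of the 239 H3K4me1 regions. The remaining regions are missing from at least 1 list and enter only the counts of gained and lost regions. Changes are differences between mean normal scores, that is, shared ranks turned into standard deviations from the middle of the list, and adjusted p-values come from limma over all regions of the mark. A falling rank means that a region fell behind other regions, and it does not give the absolute amount of the mark. The comparisons share groups (WT 0 h serves several of them), so their calls are not independent.

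After 1 h of Nutlin-3a in WT cells, 2 regions rose and 6 fell of the 35 (22.9%), against 29.1% of all 18757 regions called (14.3% up and 14.8% down). The EPHB2 promoter (chr1:23036731-23038389) fell: the 0 h lists had it at shared percentiles 73.9 and 72.9, the 1 h lists at 64.2 and 41.7 (−0.55 ± 0.159 SE, adjusted p = 0.0213). Both 1 h lists lie below both 0 h lists, but most of the change came from WT 1 h replicate 2, without which it was −0.26 (adjusted p = 0.117); the call was also lost without either WT 0 h list (adjusted p = 0.111 and 0.0932). Within ZNRF3, an intronic region 121 kb from the start rose from 5.81 and 1.31 to 18.5 and 10.2 (+0.81 ± 0.254, adjusted p = 0.0294), and a region 148 kb from the start, at a non-coding promoter in the gene, fell from 74.9 and 71.7 to 54.0 and 61.9 (−0.42 ± 0.122, adjusted p = 0.0206). The 121 kb call was lost without WT 0 h replicate 2 (0.46, adjusted p = 0.259) or WT 1 h replicate 1 (0.59, adjusted p = 0.11), and the 148 kb call without either WT 0 h list (adjusted p = 0.139 and 0.0711). At 10 h the EPHB2 promoter lay at 56.6 and 58.7 and was not called against 0 h. The other 5 calls lie at promoters of neighbouring genes (MTMR4, SUPT4H1, SKP1 and NOD2). Ranked by fold enrichment in place of p, none of the 35 regions was called.

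**Figure D5:**
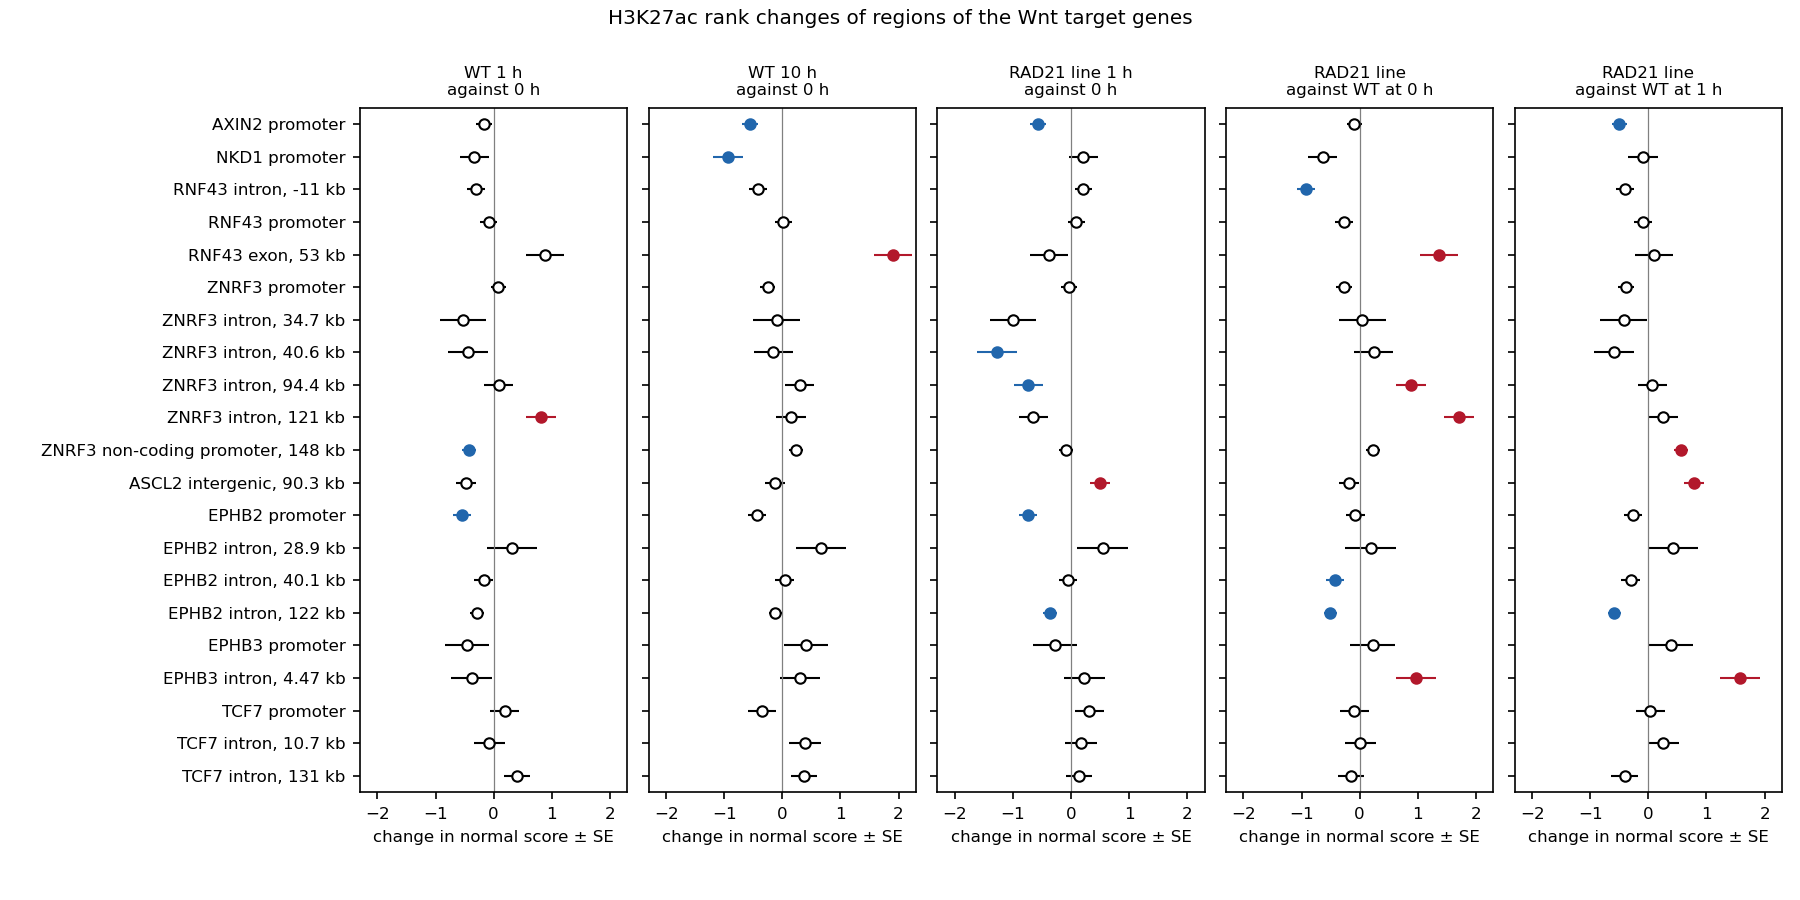
Change in normal score of H3K27ac rank (standard deviations) with its standard error for regions called in every list, by comparison; filled points passed an adjusted p of 0.05 (red higher, blue lower) and open points did not. The EPHB2 promoter lies below 0 at 1 h in both lines, and the RNF43 region at 53 kb has the largest rise at 10 h among the regions plotted.

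After 10 h, 2 regions rose and 2 fell (11.4%, against 18.3% of all regions, 9.7% up and 8.56% down). The largest rise was in RNF43, at a region over exon sequence towards the 3′ end of the gene, 53.0 kb from the start (chr17:56439740-56444033). It lay at shared percentiles 0.589 and 0.562 at 0 h, 1.51 and 13.4 at 1 h, and 24 and 29.1 at 10 h (+1.90 ± 0.327, adjusted p = 0.00289). The call held without any single list (1.79 to 1.95), and with the form of the peak name as a term it was lost (0.84, adjusted p = 0.36). Here and below, that term rests on the WT 1 h pair alone, the only group with both forms. It therefore cannot separate the name form from any other difference between those lists. The 10 h and 0 h lists do not overlap, and neither do the lists with and without input in their names, which run from 5.95 to 29.1 and from 0.562 to 1.51.

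The promoters of AXIN2 and NKD1 fell at 10 h. The AXIN2 promoter region (chr17:63555826-63558340), which holds the motif pair shown above, went from 95.8 and 93.5 to 84.2 and 87.2 (−0.55 ± 0.133, adjusted p = 0.0145), with 94.2 and 91.1 at 1 h. The NKD1 promoter went from 22.9 and 25.2 to 7.04 and 3.46 (−0.94 ± 0.255, adjusted p = 0.0241), with 13.5 and 16.5 at 1 h. Neither pair of 10 h lists overlapped the 0 h pair on this scale, but by list percentile the NKD1 peak lay at 52.8 and 53.3 at 0 h and at 55.1 and 44.8 at 10 h, so those pairs overlap. Both calls were lost when any 1 of the 4 lists was left out (adjusted p from 0.0546 to 0.139 for AXIN2 and from 0.0659 to 0.179 for NKD1) and with the name form as a term (adjusted p = 0.323 and 0.17). The fourth call was a rise at the shared promoter of THAP2 and ZFC3H1, within the LGR5 window.

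Between 1 h and 10 h, 8 regions rose and 2 fell (28.6%, against 32.4% of all regions, 15.8% up and 16.5% down). The ZNRF3 region at 148 kb returned from 54.0 and 61.9 to 77.5 and 82.8 (+0.65, adjusted p = 0.00171) and stayed called without any single list. The AXIN2 promoter, not called at 1 h against 0 h, fell between 1 h and 10 h (−0.39, adjusted p = 0.0393). That call was lost without WT 1 h replicate 1 (−0.28) or without either 10 h list. The RNF43 region at 53.0 kb rose by 1.01 in normal score, and by 0.46 without WT 1 h replicate 1 (adjusted p = 0.27), and was also lost without either 10 h list (adjusted p = 0.105 and 0.168). Ranked by fold enrichment, 1 of the 10 calls remained, at an MTMR4 promoter.

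In the HCT116_RAD21 line, where all 4 lists have the same name form, 3 regions rose and 6 fell at 1 h (25.7%, against 27.7% of all regions, 14.4% up and 13.4% down). The EPHB2 promoter fell from 71.2 and 70.5 to 38.5 and 46.8 (−0.74 ± 0.159, adjusted p = 0.00428) and the AXIN2 promoter from 93.1 and 94.2 to 81.2 and 85.0 (−0.57 ± 0.133, adjusted p = 0.00706). The intronic ZNRF3 region at 40.6 kb, whose summit carries the motif pair shown above, fell from 10.1 and 14.1 to 0.328 and 1.42 (−1.28 ± 0.340, adjusted p = 0.0139). In all 3, both 1 h lists lie below both 0 h lists. The EPHB2 promoter call was lost without the 1 h replicate 1 (−0.63, adjusted p = 0.0572), and each of the other 2 without that list (adjusted p = 0.075 for AXIN2 and 0.119 for ZNRF3) or without the 0 h replicate 2 (adjusted p = 0.0644 and 0.089).

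Changes were also called at regions outside promoters. The intronic EPHB2 region at 122 kb fell from 74.3 and 74.6 to 62.0 and 61.2 (−0.36, adjusted p = 0.0362), and the ZNRF3 region at 94.4 kb from 36.6 and 43.7 to 19.1 and 13.6 (−0.73, adjusted p = 0.046). The distal ASCL2 region at 90.3 kb rose from 19.7 and 30.7 to 49.5 and 36.2 (+0.50, adjusted p = 0.0474). The EPHB2 and ZNRF3 calls were lost when any 1 of the 4 lists was left out, and the ASCL2 call in 3 of 4 cases (without 0 h replicate 1, 1 h replicate 1 or 1 h replicate 2, with changes of 0.31, 0.32 and 0.66). Ranked by fold enrichment, none of the 9 calls remained.

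At baseline the 2 lines differed in 11 of the 35 regions (4 higher and 7 lower in HCT116_RAD21, 31.4%, against 37.5% of all regions, 16.8% higher and 20.7% lower), and the name form differs between them as well. The ZNRF3 region at 121 kb stood out: it lay at shared percentiles 5.81 and 1.31 in WT and at 39.9 and 45.4 in the HCT116_RAD21 line (+1.71 ± 0.254, adjusted p = 2.27e-04), and it was called under every alternative that held it. It did not reach a −log10 q of at least 5 in every list, so that alternative left it out. An RNF43 region 11 kb before the start site, in an intron of HSF5, went the other way, from 57.1 and 62.8 to 26.0 and 24.3 (−0.92, adjusted p = 5.29e-04), and the RNF43 region at 53.0 kb was higher in the HCT116_RAD21 line (11.5 and 13.1, +1.37, adjusted p = 0.00562). Both calls held without any single list and were lost with the name form as a term (−0.48, adjusted p = 0.105, and 0.30, adjusted p = 0.691).

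The ephrin receptor genes differed between the lines too. The EPHB2 region at 122 kb was lower in the HCT116_RAD21 line (86.5 and 88.8 in WT, −0.50, adjusted p = 0.00509; −0.45 and adjusted p = 0.0567 without WT 0 h replicate 2). An intronic EPHB3 region 4.47 kb from the start lay at 2.54 and 0.77 in WT and at 17.1 and 6.81 in the HCT116_RAD21 line (+0.97, adjusted p = 0.0446). Further calls were made in introns at ZNRF3 94.4 kb (higher, +0.89, adjusted p = 0.0151) and EPHB2 40.1 kb (lower, −0.43, adjusted p = 0.0469). The ZNRF3 call was lost without WT 0 h replicate 1 (0.72) or either HCT116_RAD21 0 h list (0.95 and 0.78), and the EPHB2 call without either WT 0 h list (−0.56 and −0.29) or the HCT116_RAD21 0 h replicate 1 (−0.27). The EPHB3 call was lost without WT 0 h replicate 1 (1.15, adjusted p = 0.0688), without WT 0 h replicate 2 (0.67, adjusted p = 0.239) and without the HCT116_RAD21 0 h replicate 1 (0.75, adjusted p = 0.23).

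At 1 h, 3 regions were higher and 3 lower in the HCT116_RAD21 line than in WT (17.1%, against 11.8% of all regions, 5.68% higher and 6.15% lower). The EPHB3 region at 4.47 kb lay at 0.381 and 0.688 in WT and at 15.4 and 16.9 in the HCT116_RAD21 line (+1.58, adjusted p = 0.0136), and the ASCL2 region at 90.3 kb at 19.6 and 13.8 against 49.5 and 36.2 (+0.79, adjusted p = 0.0126). The ZNRF3 region at 148 kb was higher (+0.57, adjusted p = 0.0113), and the EPHB2 region at 122 kb (−0.58, adjusted p = 0.00861) and the AXIN2 promoter (−0.50, adjusted p = 0.0304) were lower, as was the HADH promoter in the LEF1 window. The ASCL2 call was lost without the HCT116_RAD21 1 h replicate 1 (0.61, adjusted p = 0.155) and those at EPHB3, ZNRF3, EPHB2 and AXIN2 without either of the HCT116_RAD21 1 h lists (adjusted p from 0.0703 to 0.212). Ranked by fold enrichment, or fitted on the 4 lists compared alone, none of the 6 calls remained.

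The response at 1 h itself differed between the lines in 4 of the 35 regions (3 higher and 1 lower, 11.4%, against 22.7% of all regions, 11.7% higher and 11.0% lower), by the interaction term. The ZNRF3 region at 121 kb went from 5.81 and 1.31 to 18.5 and 10.2 in WT and from 39.9 and 45.4 to 17.7 and 23.1 in the HCT116_RAD21 line, a difference of −1.46 (adjusted p = 0.0115). The ASCL2 region at 90.3 kb went from 30.9 and 31.5 to 19.6 and 13.8 in WT and from 19.7 and 30.7 to 49.5 and 36.2 in the HCT116_RAD21 line, a difference of +0.98 (adjusted p = 0.0122). The ZNRF3 call was lost without WT 0 h replicate 2 (−1.10), HCT116_RAD21 0 h replicate 2 (−1.37) or 1 h replicate 1 (−1.36), and the ASCL2 call without HCT116_RAD21 0 h replicate 1 (0.78) or 1 h replicate 1 (0.80). The other 2 lie at the promoters of MTMR4 and SUPT4H1 on either side of RNF43. The promoters of AXIN2 and EPHB2, which fell at 1 h in the HCT116_RAD21 line, did not pass the test of a difference between lines. Over the 7 H3K27ac comparisons, the promoters of RNF43 (shared percentiles 65.7 to 83.8 over the 10 lists), ZNRF3 (48.2 to 72.1), TCF7 (7.93 to 39.2) and EPHB3 (1.05 to 14.2) were called in none.

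A smaller share of H3K4me1 regions was called. The fit had 6 lists and 60476 regions, against 10 and 18757 for H3K27ac. The sizes of change were not compared between the marks. At 1 h, 1 of 125 regions was called (0.8%, against 0.595% of all regions, 0.291% up and 0.304% down), the region over the ZNRF3 start site (chr22:29276621-29283155). It fell from shared percentiles 95.8 and 92.6 to 67.4 and 73.3 and was at 90.4 and 89.9 at 10 h (−1.05 ± 0.166 at 1 h, adjusted p = 0.0132). Wider H3K4me1 peaks outside this region also overlap a ZNRF3 promoter. By the strongest promoter peak of each list, ZNRF3 lay at list percentiles 97.1 and 95.4 at 0 h and 91.3 and 89.5 at 1 h. No region was called at 10 h against 0 h by limma (0.638% of all regions were, 0.615% up and 0.0231% down), with 14 of 125 at an unadjusted p under 0.05. At 10 h against 1 h, 5 regions rose and 1 fell (4.8%, against 3.05%, 1.92% up and 1.13% down), among them the region over the ZNRF3 start site (+0.76), an intronic LEF1 region 33.2 kb from the start (28.6 and 2.26 to 68.3 and 81.5, +1.97, adjusted p = 0.0108) and a TCF7 region over exons at 24.6 kb (32.5 and 36.5 to 74.8 and 72.3, +1.03, adjusted p = 0.0168). Each of these calls was lost when any 1 of the 4 lists was left out, except that the LEF1 call held in 1 of 4 cases.

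Regions called in both lists of one group and in neither list of the other were counted as gained or lost. After 10 h in WT, 20 of the 157 H3K27ac regions were gained (12.7%, against 11.4% of all regions) and 2 were lost (1.27%, against 1.9%). RNF43 held 7 of the gains, all inside the gene, and TCF7 held 6, of which those at 26.7 and 32.2 kb lie over its own exons. The RNF43 region at 33.5 kb (chr17:56459894-56463003), whose summit holds the motif shown above, was called in all lists but those of WT 0 h, at list percentiles 6.71 and 53.0 at WT 1 h, 27.8 and 40.7 at 10 h, and 23.7 to 45.4 in the HCT116_RAD21 line. The gains compare lists of unlike name form, and when only peaks with −log10 q of at least 5 were kept, gains and losses at 10 h fell from 22 to 3.

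After 1 h in WT, 3 regions were gained (1.91%, against 1.51%) and none was lost (1.32% of all regions were), and after 1 h in the HCT116_RAD21 line 3 were gained (1.91%, against 4.61%) and 3 lost (1.91%, against 2.87%). The EPHB2 region 21.3 kb before the start was gained in WT at 1 h, at list percentiles 30.1 and 27.4, was missing again at 10 h, and was present in the HCT116_RAD21 line at 47.4 and 23.9 and at 55.6 and 52.7. Against WT, the HCT116_RAD21 line gained 12 regions and lost 1 at 0 h (7.64% and 0.637%, against 5.28% and 2.83%). It gained 9 and lost 0 at 1 h (5.73% gained, against 3.24%, with 1.15% of all regions lost). At 0 h the lists of the lines differ in name form, and at 1 h 1 WT list differs from the rest. When −log10 q of at least 5 was required, gains and losses between the lines numbered 2 at 0 h and 0 at 1 h. Of the H3K4me1 regions, the 1 h lists gained 6 and lost 2 (2.51% and 0.837%, against 3.3% and 1.75%), and the 10 h lists gained 3 and lost 3 (1.26% each, against 2.63% and 2.29%).

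The 2 marks overlapped at nearly all H3K27ac regions of the genes. Of the H3K27ac regions called in both lists of a WT group, 43 of 43 overlapped H3K4me1 at 0 h and 42 of 42 at 1 h (97.8% and 98.4% over all regions), and 56 of 63 at 10 h (88.9%, against 82.2%). The 7 without H3K4me1 at 10 h lie in the windows of RNF43 (3), TCF7 (3) and ZNRF3 (1). In the other direction, 27.7%, 26.3% and 31.7% of the H3K4me1 regions overlapped H3K27ac at 0, 1 and 10 h, against 34.2%, 32.7% and 35.4% over all regions.

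The rest of the pathway was read from a list of 72 Wnt genes. H3K27ac marked 51 of their promoters in every list (70.8%, against 58.0% of coding genes) and 14 in none. All 13 destruction complex and cytoplasmic genes were marked in every list, as were 12 of 14 receptors and 9 of 11 nuclear factors, but 5 of 13 ligand and secretion genes, 7 of 13 inhibitors and other targets and 5 of 8 stem genes. Of 54 tested promoter regions of 52 of these genes, 6 rose and 8 fell at 1 h in WT (25.9%, against 29.1% of all regions), 9 rose and 6 fell at 10 h (27.8%, against 18.3%), and 4 rose and 4 fell at 1 h in the HCT116_RAD21 line (14.8%, against 27.7%).

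Several single genes of that list were called. CDCA7, listed among the stem genes, fell at 1 h (−0.85, adjusted p = 4.04e-04) and 10 h (−1.22, adjusted p = 8.73e-05) in WT and at 1 h in the HCT116_RAD21 line (−0.93, adjusted p = 1.43e-04). BMI1, a Polycomb protein of stem cells, rose against 0 h in WT at 1 h (+1.49, adjusted p = 1.72e-04) and 10 h (+0.81, adjusted p = 0.00908). Between 1 h and 10 h it fell (−0.68, adjusted p = 0.0109). It was not called at 1 h in the HCT116_RAD21 line, and its interaction term was −1.245 (adjusted p = 0.00353). The secreted ligand WNT3 fell (−0.67, adjusted p = 0.00293) and DKK1, a secreted inhibitor of LRP receptors, rose (+1.13, adjusted p = 0.0077) at 10 h in WT. The study lists DKK1 among its p53 distal target genes, as a target known before. The alternative fits, such as leaving out single lists, were not run for the promoters of this list. The WT comparisons with 0 h also carry the difference in name form, at 1 h in 1 of the 2 lists.

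The promoters whose H3K27ac shared ranks followed the AXIN2 promoter most closely over the 10 lists, of 10614 compared, were those of C14orf132 (Pearson r = 0.974), ROPN1 (0.969), ZMAT1 (0.959), ROPN1B (0.952) and FAM156A (0.952). ROPN1 and ROPN1B are near-identical copies that can share reads. The 10 lists fall into 5 groups and differ in name form and number of peaks, so the values are a description.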

How the data were processed

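H3K27ac and H3K4me1 were profiled by ChIP-seq, and 16 peak lists of 1 library each were used, while 10 input libraries were not analysed here. According to the study's methods, reads were trimmed, mapped to GRCh37, stripped of duplicates and blacklisted reads, and passed to MACS2 (2.2.7.1 per the labels) calling narrow H3K27ac and broad H3K4me1 peaks with an input control. The deposited fold, −log10 p-value and −log10 q-value of each peak are the authors' values, the fold being a ratio over local background. Read depth is not given in the lists.

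Groups came from the sample labels. Peaks of a mark that overlapped by at least 1 bp were merged across lists, and placed on GENCODE genes lifted to GRCh37. Windows took 100 kb on each side. Each region was ranked in its list by −log10 p, regions called in every list were re-ranked, turned into normal scores and fitted with limma 3.58.1 (R 4.3.3; trended variance, all groups of a mark in 1 fit, Benjamini-Hochberg over all regions, threshold 0.05). The fit was checked on simulated data. The members and lists were chosen with earlier results of these data known. Named regions are each gene's promoter, its strongest region outside promoters of coding genes, and called or gained and lost regions, by a rule that took the 3 smallest p-values per comparison and direction. Calls at neighbouring genes' promoters were counted and mostly not given values, and further called regions in the genes were named after their values were seen. Pathway genes named are among the 3 with the smallest p-values in their direction. Alternatives were ranking by fold enrichment, −log10 q of at least 5, windows of 50 kb, overlap of 50%, a term for the form of the peak name, a replicate block, the compared lists alone, and leaving out each list. Some peak names carry another replicate number than the label, and the labels were followed. The replicate numbers did not pair the samples.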

Additional observations from a re-analysis of the deposited data

Results flagged for a closer look

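In 4 regions the 1 h change differed between the HCT116_RAD21 line and WT by the interaction term of the limma fit, as differences of normal scores (line minus WT). They are the MTMR4 promoter region 101 kb before RNF43 (1.45, adjusted p = 1.56e-04), the ZNRF3 intronic region at 121 kb (−1.46, adjusted p = 0.0115), the intergenic region 90 kb past ASCL2 (0.98, adjusted p = 0.0122) and the SUPT4H1 promoter region 64 kb past the RNF43 start (0.71, adjusted p = 0.0149). The share of regions that differed so was 11.4% here and 22.7% over all regions. The first difference held without any single list (1.37 to 1.53), and the others were lost in 3, 2 and 3 of 8 such cases. WT 1 h replicate 1 and both WT 0 h lists have another form of peak name than the rest, and its part in these differences was not tested beyond the term given in the next section.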

How the results depend on the processing

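Of 59 calls of single regions in the 10 windows, 2 held in every alternative that included them and 57 never changed direction. Of these 2, the ZNRF3 region at 121 kb (lines at 0 h) was not in the fit with −log10 q of at least 5. The 2 that reversed did so under ranking by fold enrichment, at the SUPT4H1 promoter 64 kb past the RNF43 start (0.25, adjusted p = 0.539) and the SKP1 promoter 62 kb past the TCF7 start (0.29, adjusted p = 0.599), both for the lines at 0 h. Ranking by fold enrichment lost 48 of the 59 calls and kept 9, leaving 0 called H3K27ac regions at WT 1 h, 8 at WT 10 h, 1 at 10 h against 1 h, 0 in the HCT116_RAD21 line at 1 h, 0 between the lines at 1 h and 0 in the interaction, and 0 H3K4me1 regions at 1 h and 0 at 10 h against 1 h. The compared lists alone gave 1, 7, 3, 15, 17 and 0 H3K27ac calls (WT 1 h, WT 10 h, 10 h against 1 h, HCT116_RAD21 1 h, between lines at 0 h and at 1 h) and 1 H3K4me1 call at 10 h. The name form as a term, which rests on the WT 1 h pair alone, gave 0 calls at WT 10 h and 10 in the interaction. Windows of 50 kb gave 6 calls at 10 h against 1 h and 2 in the interaction, 14 gained and lost H3K27ac regions at WT 10 h, 3 H3K4me1 ones at 1 h and an H3K4me1 covered share of 17.4%. With −log10 q of at least 5, gained and lost H3K27ac regions numbered 1 (WT 1 h), 3 (WT 10 h), 1 (HCT116_RAD21 1 h), 2 and 0 (between lines at 0 h and 1 h), H3K4me1 ones 0 and 0, and the H3K4me1 covered share was 11.9%. With an overlap of 50%, the numbers were 5 (WT 1 h), 13 (HCT116_RAD21 1 h) and 25 (lines at 0 h), and 20 and 15 for H3K4me1 at 1 h and 10 h. The cause was not tested.

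Leaving out 1 list gave 3 to 9 called H3K27ac regions at WT 1 h, 1 to 1 at WT 10 h, 3 to 16 at 10 h against 1 h, 0 to 4 in the HCT116_RAD21 line, 6 to 8 and 0 to 9 between the lines at 0 h and 1 h, and 1 to 12 in the interaction. For H3K4me1 it gave 0 to 0 at 1 h, 0 to 0 at 10 h and 0 to 1 at 10 h against 1 h. Gained and lost regions, then called from 1 list on one side, ranged from 6 to 16, 25 to 35, 12 to 26, 17 to 35 and 16 to 21 for H3K27ac (WT 1 h, WT 10 h, HCT116_RAD21 1 h, lines at 0 h and 1 h) and from 20 to 31 and 14 to 35 for H3K4me1 at 1 h and 10 h. The covered shares were 2.88% to 3.15% and 14.6% to 15.4%.

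The replicate numbers did not pair the samples (correlations of replicate differences −0.050 to 0.045). The replicate block kept 55 of 59 calls and gave 2 called H3K4me1 regions at 1 h in place of 1. Limits are the 2 lists a group, ranks that give no absolute level, and the name form that moves with WT 10 h against 0 h.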
